A study of Mus musculus with 13 samples.

Results

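A stretch of mouse chromosome 2 around the coat colour gene a (nonagouti) was examined for 5-hydroxymethylcytosine (5hmC) in knee cartilage. Its members were every region of the authors' 3 deposited tables of changed regions that starts on chromosome 2 (mm10) at or after 150000000 and before 160 Mb. They numbered 1072 of 181833 regions in all: 432 of 65969 in MUT DMM against WT DMM, 466 of 72486 in MUT DMM against WT sham, and 174 of 43378 in WT DMM against WT sham. The rest of chromosome 2 held 4179, 4733 and 2832 regions in the same order. The interval was selected on the authors' calls and normalized counts in these same tables, so the counts of calls inside it describe it and test nothing. At its lower edge, the nearest region before it in MUT DMM against WT DMM had a mean of 35.6 normalized counts for MUT DMM against 19.3 for WT DMM, and the first region inside it 0.235 for MUT DMM against 5.97 for WT DMM. At its upper edge, the last region inside had 2.36 for MUT DMM against 5.16 for WT DMM, and the next one outside 12.7 for MUT DMM against 1.67 for WT DMM. The edges thus cut through regions of both directions.

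5hmC is made from 5-methylcytosine by the TET enzymes and is common in gene bodies and enhancers of active genes. The agouti protein encoded by a blocks the melanocortin receptor of pigment cells and turns hair pigment yellow. The C57BL/6 strain carries the nonagouti allele, while most 129 strains carry alleles that make agouti protein. Gdf5, a growth factor gene of joint formation that is linked to osteoarthritis risk in people, lies in the same stretch, as does Dnmt3b, which encodes a DNA methyltransferase that sets new methylation. RRHP, the assay used, reads 5hmC at CCGG sites only: glucose placed on 5hmC protects an adapter-carrying CCGG end from a repeated MspI digest, and a read arises only where both the CCGG letters and the mark are present.

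MUT DMM stands for mutant knees (genotype label TET-/-) in which the medial meniscus was surgically destabilised (DMM), a common way to bring on osteoarthritis in mice. WT DMM stands for TET1+/+ knees after DMM, and WT sham for TET1+/+ knees that were opened only. The mice were males on a B6;129S4 background, and knees were taken 6 weeks after surgery. Their age is 3 to 4 months by the design text but 4 to 6 months by the protocol. The deleted part of Tet1, which lies on chromosome 10 and so outside the stretch, and the cell types that lack it are not stated. The protocol places each control on the opposite leg, and which sham library shares a mouse with which DMM library is not stated. Libraries are named here by their place in the deposited cells, since these carry no replicate number. Every group was deposited with 3 libraries, but a MUT DMM library appeared 2 times with identical values, which left a deep and a shallow MUT DMM library. Cartilage identity could not be checked by expression in these data. Of 7 cartilage marker genes elsewhere in the genome, 4 held a higher and 2 a lower region in MUT DMM against WT DMM.

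Depth and library quality set limits. In the stretch the deep and shallow MUT DMM libraries had 35469 and 2171 reads, against 247, 8669 and 10890 for WT DMM 1, 2 and 3. In MUT DMM against WT sham the WT sham libraries held 25195, 12244 and 49629 reads there. WT DMM 1 was near-empty, at 0 in 73.4% of the regions of the stretch in MUT DMM against WT DMM and in 93.1% in WT DMM against WT sham. WT sham 3 stood apart on chromosome Y, with a mean of 13.2 normalized counts over 2100 regions in MUT DMM against WT sham, where the other libraries had 57.8 to 82.8, although all mice are stated to be male. Some of the main counts that rest on WT DMM 1 or WT sham 3 are also given without it. Only regions that had passed the authors' window p-value are listed, values of a library are comparable within a table only, and a lower count in dissected tissue can come from fewer marked cells or from less mark per cell, which cannot be told apart.

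The sequences below are RefSeq promoter windows (GRCm38.p6, 250 bases before to 50 after the gene start), shown because a listed region overlaps each. The capitals mark CCGG, the letters at which the assay can read; the motif equals its own reverse complement, so both strands are covered. Of all 32851 promoter windows 52.8% hold CCGG, and of the 237 in the stretch 62.4% do. Gm14170 (chr2:156401323-156401622, minus strand) is the 1 window that overlaps a region in which WT sham libraries stood far apart, and Cep250 (chr2:155956308-155956607, plus strand) overlaps listed regions in all 3 tables. Acss2 (chr2:155517793-155518092, plus strand) and Raly (chr2:154790860-154791159, plus strand) overlap regions that were higher in MUT DMM than in both wild-type groups.
Gm14170: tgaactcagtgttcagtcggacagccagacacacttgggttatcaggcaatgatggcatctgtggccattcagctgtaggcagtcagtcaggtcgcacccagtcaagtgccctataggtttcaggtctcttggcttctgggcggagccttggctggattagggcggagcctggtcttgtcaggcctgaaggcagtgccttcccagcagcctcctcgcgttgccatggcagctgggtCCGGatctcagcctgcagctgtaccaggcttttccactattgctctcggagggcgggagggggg
Cep250: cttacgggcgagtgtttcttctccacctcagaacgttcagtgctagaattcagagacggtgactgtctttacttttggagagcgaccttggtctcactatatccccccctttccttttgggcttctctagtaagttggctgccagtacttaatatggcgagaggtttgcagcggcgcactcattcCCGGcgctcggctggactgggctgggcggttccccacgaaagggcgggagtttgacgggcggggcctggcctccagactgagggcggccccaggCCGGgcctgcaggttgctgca
Acss2: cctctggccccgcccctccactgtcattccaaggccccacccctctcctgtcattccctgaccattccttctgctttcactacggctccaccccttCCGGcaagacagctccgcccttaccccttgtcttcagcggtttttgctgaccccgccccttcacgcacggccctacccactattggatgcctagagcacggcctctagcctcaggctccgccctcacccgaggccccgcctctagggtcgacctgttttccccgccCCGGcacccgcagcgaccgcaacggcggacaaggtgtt
Raly: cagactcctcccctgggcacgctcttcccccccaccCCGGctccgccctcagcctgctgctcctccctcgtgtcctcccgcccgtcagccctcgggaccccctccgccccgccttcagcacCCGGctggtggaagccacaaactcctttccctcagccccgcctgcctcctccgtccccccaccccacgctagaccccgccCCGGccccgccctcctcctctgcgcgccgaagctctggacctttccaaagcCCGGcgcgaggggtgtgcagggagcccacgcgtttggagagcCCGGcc
Gm14170 has 1 such site, Cep250 and Acss2 have 2 each and Raly has 5.

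The shares of higher and lower calls in the stretch lay apart from those on the rest of the chromosome in 2 of the 3 comparisons. Single 1-Mb bins elsewhere on the chromosome came near: 68.4% higher at most in MUT DMM against WT DMM, where bins of the stretch reached 69.9%, and 42.9% at least in WT DMM against WT sham, where bins of the stretch went down to 33.3%. In MUT DMM against WT DMM the flanks were raised as well. Bins centred -11 to -6 Mb from the start of a had 40.7% to 55.6% higher, and those centred 6 to 10 Mb past it 41.9% to 51.7%. The next bins outward had 29.0% and 26.3%. The bins from 10 to 14 Mb past the start of a, outside the stretch, had 68.4% of 79 regions higher in WT DMM than in WT sham, a lower share than that of the stretch. For MUT DMM against WT DMM, 428 of 432 regions were changed at the authors' adjusted p under 0.05, where 98.9% of the whole table were, because the table lists little else. Of these, 244 were higher and 184 lower in MUT DMM, so that 57.0% were higher (exact 95% interval 52.2 to 61.8) against 34.2% on the rest of chromosome 2. Over the whole table, 34.2% of listed regions were called higher and 64.7% lower. For WT DMM against WT sham all 174 regions were changed, where 99.7% of the table were. Here 136 were higher and 38 lower in WT DMM, which is 78.2% higher (interval 71.3 to 84.1) against 93.3% on the rest of chromosome 2. Of all regions listed for it, 93.2% were called higher and 6.53% lower. For MUT DMM against WT sham, with 462 of 466 changed (99.3% over the table), 176 were higher and 286 lower in MUT DMM. That share, 38.1% (interval 33.6 to 42.7), lay close to the 40.8% of the rest of chromosome 2, with 43.2% called higher and 56.1% lower over the table. The intervals cover counting over neighbouring regions, which are not independent.

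Leaving out libraries moved these shares. Without WT DMM 3, 51.7% of the regions of the stretch were higher in WT DMM than in WT sham, against 65.8% on the rest of chromosome 2. Leaving out the same library, 66.1% were higher in MUT DMM than in WT DMM, against 52.8% on the rest of the chromosome, a smaller gap than with it. Without WT DMM 1, 56.5% were higher in MUT DMM than in WT DMM, against 33.5% on the rest of chromosome 2. Without both WT DMM 1 and WT sham 3, the share higher in WT DMM than in WT sham stayed at 78.2%. Among regions where WT sham 1 and WT sham 3 were under 4-fold apart, 41.8% were higher in MUT DMM than in WT sham, against 42.1% on the rest of chromosome 2. When all libraries of both groups had to be apart, with the near-empty one left aside, 200 regions were higher and 159 lower in MUT DMM than in WT DMM, where 24.1% and 52.9% of the table were. Against WT sham, 122 were higher and 225 lower in MUT DMM, where 32.5% and 49.1% of the table were. Relative to WT sham, 111 were higher and 15 lower in WT DMM, where 79.5% and 2.02% of the table were. With WT DMM 1 kept, 1 was higher and 12 lower in WT DMM than in WT sham, where 0.994% and 1.71% of the table were, and 189 were higher and 49 lower in MUT DMM than in WT DMM, where 22.9% and 18.5% were.

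**Figure D1:**
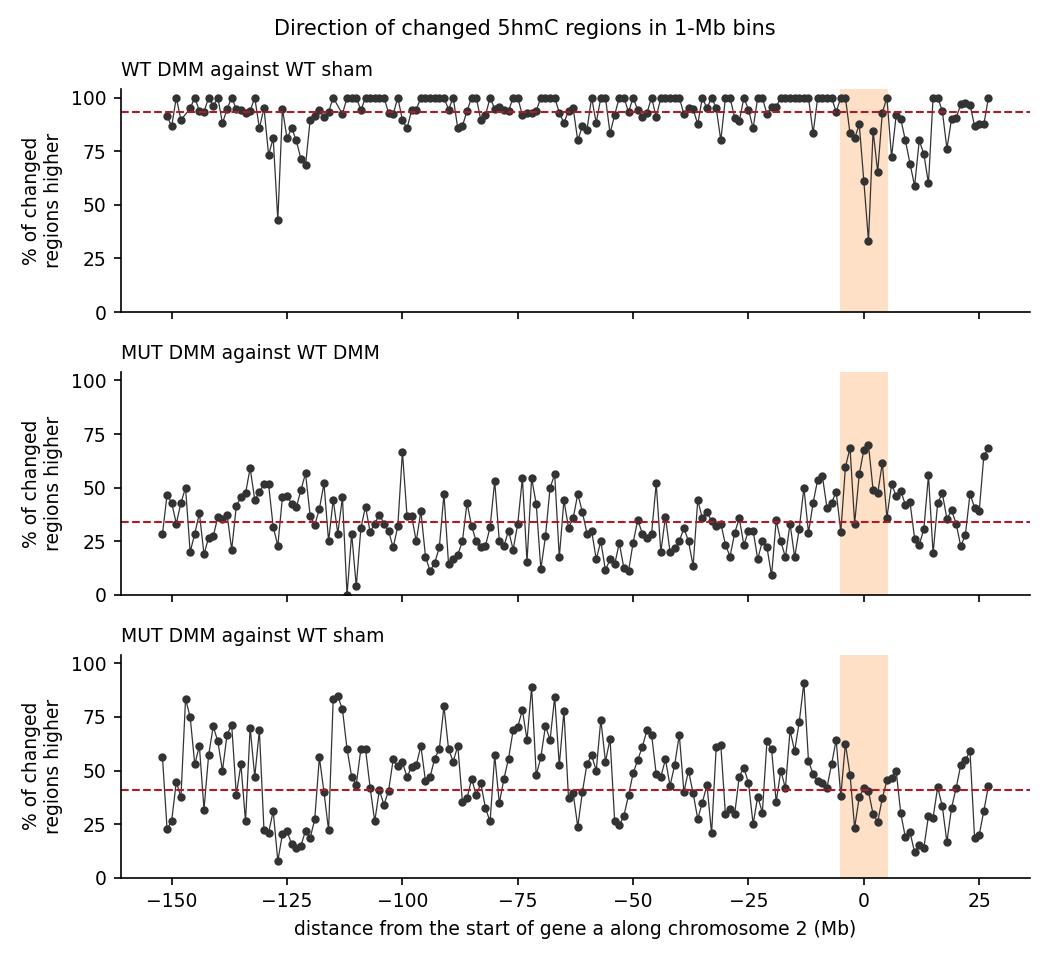
Share of changed regions (percent) that were higher in the first-named group, in bins of 1 Mb by distance from the start of a (Mb), for the 3 comparisons; bins with fewer than 5 regions are left out, the shaded band is the stretch, and the dashed line is the share on the rest of chromosome 2. In the band, the share dips below the 93.3% line in WT DMM against WT sham and lies mostly above the 34.2% line in MUT DMM against WT DMM, and further dips in WT DMM against WT sham lie at 10 to 14 Mb, beyond the band, and near the start of the chromosome. In MUT DMM against WT DMM the bins at -11 to -6 Mb and at 6 to 10 Mb, outside the band, lie above the line too.

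Of the 38 regions of the stretch called lower in WT DMM than in WT sham, 22 lay where the WT sham libraries disagreed among themselves. Regions were compared where WT sham 1 and WT sham 3 averaged at least 10 normalized counts, and were called apart when the pair differed at least 4-fold after adding 2 to each value; this comparison was added after the data were seen. Of the regions listed for WT DMM against WT sham, 22 of 42 in the stretch were apart (52.4%), against 10.5% on the rest of chromosome 2 and 9.95% over the whole table. WT sham 1 was the higher of the pair in 22 of 22, as in 30 of 30 on the rest of chromosome 2. There, 189 regions were called lower in WT DMM, and at most 30 of those were apart in this way. All 22 regions were called lower in WT DMM, and they ran over 5.54 Mb, from 152722041 to 158265000. The 1-Mb bin at 155 Mb, with 7 of 10 regions apart, and the bin at 156 Mb, with 5 of 9, ranked first and second of the 61 autosomal bins that held at least 8 such regions.

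The libraries fell into an order at these 22 regions. WT DMM 2 and WT DMM 3 had medians of 2.67 and 4.17 normalized counts, WT sham 1 of 52.0, WT sham 2 of 27.9 and WT sham 3 of 2.13. Both WT DMM libraries were on the side of WT sham 3 in 22 of 22 regions, as in 30 of 30 on the rest of the chromosome. Regions are listed only where WT DMM differs from WT sham, and these were chosen for a high WT sham 1. The side of WT DMM is thus largely fixed by the choice and is given as values only. WT sham 2, by contrast, was nearer to WT sham 1 in 19 of the 22 and lay between the pair in 21. On the rest of chromosome 2, WT sham 2 was nearer to WT sham 1 in 1 of 30 regions that were apart. WT sham 1 and WT sham 2 differed 4-fold in 2.38% of the regions of the stretch and in 8.90% on the rest of the chromosome. WT sham 2 and WT sham 3 did so in 40.5% of the stretch and in 0.707% of the rest. Among regions listed for WT DMM against WT sham, WT sham 3 was thus the sham library that differed most often in the stretch, and WT sham 1 on the rest of the chromosome. That order did not hold for MUT DMM against WT sham, where in the stretch WT sham 1 and WT sham 2 were apart in 13.5% of regions and WT sham 2 and WT sham 3 in 4.58%. On the rest of chromosome 2 these shares were 5.69% and 0.838%, so both pairs were apart more often in the stretch.

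A second kind of region, with the reverse order, appeared in MUT DMM against WT sham. There 71 of 266 regions of the stretch were apart between WT sham 1 and WT sham 3 (26.7%), against 7.66% on the rest of chromosome 2 and 10.6% over the whole table. WT sham 1 was higher in 23 and WT sham 3 in 48. On the rest of chromosome 2 WT sham 3 was the higher in only 17 of 175, so regions high in WT sham 3 made up 18.0% of the compared regions in the stretch and 0.744% elsewhere on the chromosome. The bin at 155 Mb had 21 of 37 regions apart (56.8%) and ranked second of 1973 autosomal bins. The bins at 159 and 156 Mb and the one just before 155 Mb ranked 5, 9 and 24, with 4 of 9, 20 of 50 and 8 of 23 apart, while the first 3 bins of the stretch had 5.88%, 6.67% and 2.78% apart.

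**Figure D2:**
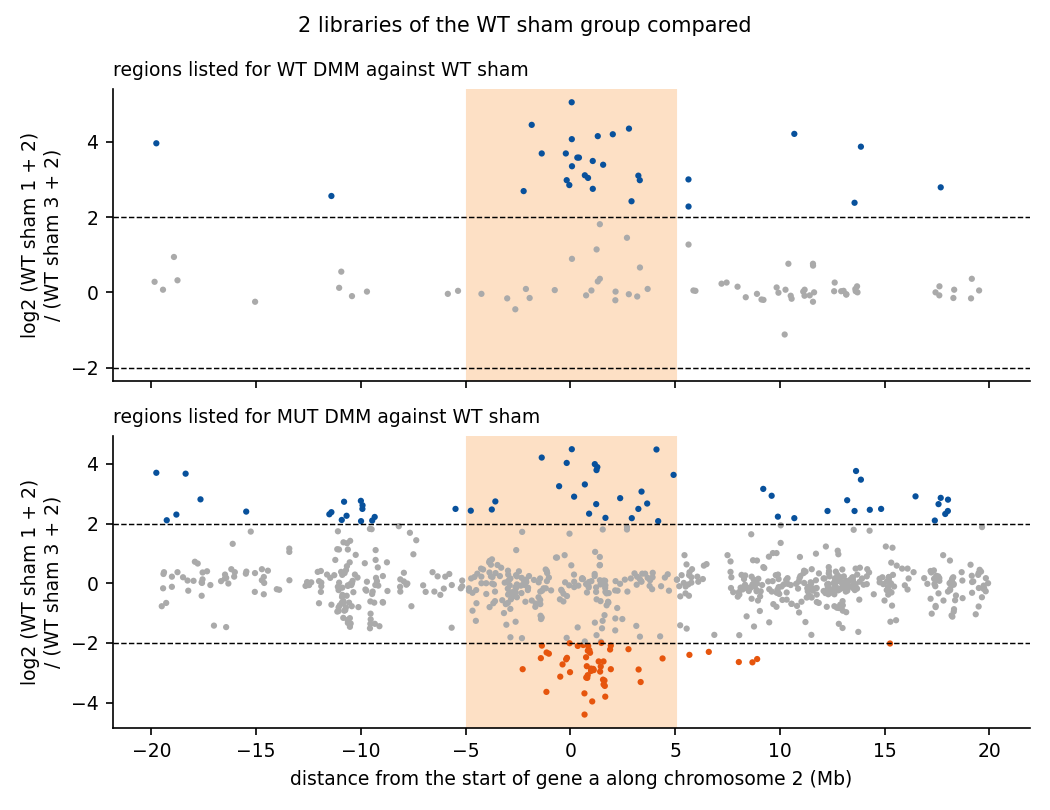
Log2 ratio of WT sham 1 to WT sham 3 (each value plus 2) at regions within 20 Mb of a that are listed in WT DMM against WT sham (upper panel) and in MUT DMM against WT sham (lower panel), by distance from the start of a (Mb); the shaded band is the stretch, the dashed lines mark 4-fold, blue points are higher in WT sham 1 and orange points higher in WT sham 3. The 22 blue points of the upper panel and the 48 orange points of the lower panel crowd in the band.

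The levels of the MUT DMM libraries at these regions are given as values only, since a region is listed only where MUT DMM differs from WT sham. Of the 23 regions high in WT sham 1, 13 had the deep MUT DMM library nearer to WT sham 1. The 13 were set apart by this rule, so a high deep MUT DMM library in them follows from it. In these 13 the medians were 69.2 in deep and 47.2 in shallow MUT DMM, 53.6 in WT sham 1, 32.4 in WT sham 2 and 1.94 in WT sham 3. The gap between WT sham 1 and WT sham 3 is likewise fixed by the choice of regions, here and in the sets that follow. WT sham 3 had at most 16.1 normalized counts in any of the 13. WT sham 1 had at least 31.8 there and WT sham 2 at least 6.95. In the other 10, WT sham 1 had the highest median by far, with medians of 0.370 and 0 in deep and shallow MUT DMM and of 36.9, 4.63 and 3.61 in WT sham 1, 2 and 3. Such regions were not more frequent in the stretch (3.76% of the compared regions) than on the rest of chromosome 2 (6.39%). In the 48 regions high in WT sham 3, the medians were 2.95 and 9.45 in deep and shallow MUT DMM, 3.98 in WT sham 1, 25.5 in WT sham 2 and 42.6 in WT sham 3. The deep MUT DMM library lay nearer to WT sham 1 in 48 of 48, as in 17 of 17 on the rest of chromosome 2, and WT sham 2 nearer to WT sham 3 in 42 of 48 and 17 of 17. The 48 were all called lower in MUT DMM, so the side of the deep MUT DMM library is largely fixed by the listing. The shallow library had at most 3 reads in any of the 48, 1 of them worth 9.45 normalized counts, so its side there is not firm.

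**Figure D3:**
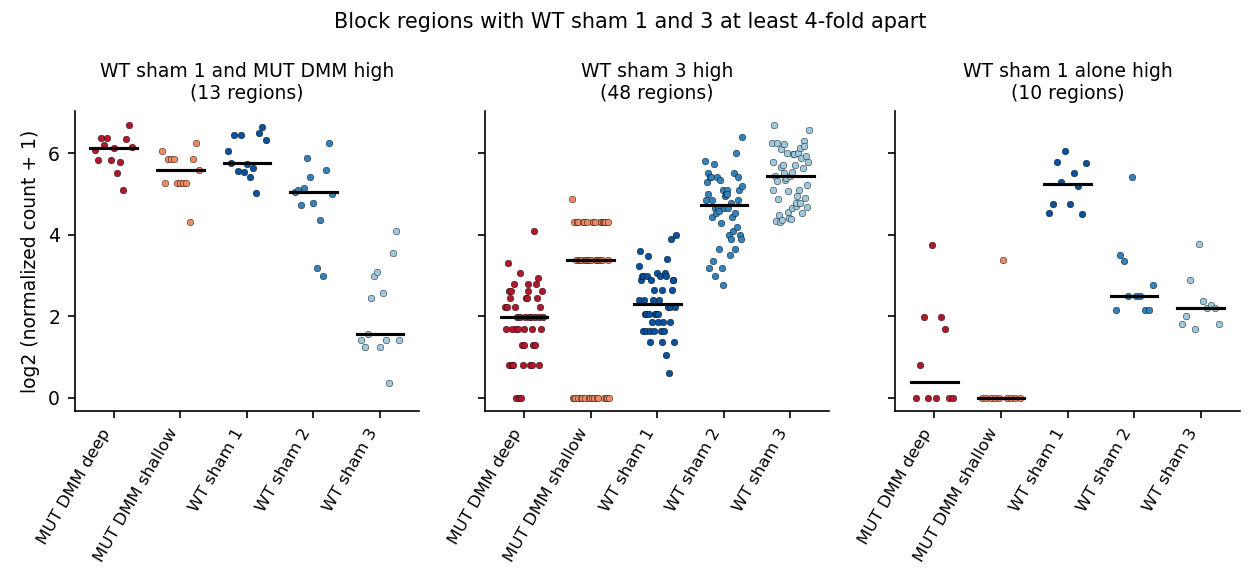
Log2 (normalized count + 1) of each library at the 71 regions of the stretch in which WT sham 1 and WT sham 3 were at least 4-fold apart in MUT DMM against WT sham, in 3 panels of 13, 48 and 10 regions; each point is a region and each bar a median. In the left panel WT sham 3 has the lowest median, and in the middle panel both MUT DMM libraries and WT sham 1 are low. In the right panel WT sham 1 has the highest median, with a single region near it in WT sham 2. The gap between WT sham 1 and WT sham 3 is fixed by the choice of regions.

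Both kinds were interleaved. Along the 61 regions of the first 2 panels the kind changed 18 times, with a smallest gap of 8.44 kb between neighbours of unlike kind, and 53 of the 61 started within the 4 Mb that follow 153 Mb. Regions high in WT sham 1 and MUT DMM lay in or next to Commd7, Itch, Trpc4ap, Uqcc1 and Phf20. Trpc4ap encodes a scaffold of a ubiquitin ligase, and its region from 155642261 to 155642580 had 81.7 and 56.7 normalized counts in deep and shallow MUT DMM, against 86.4, 57.9 and 6.93 in WT sham 1, 2 and 3. Phf20 encodes a reader of histone methylation, and its region from 156238921 to 156239180 had 33.1 and 18.9 in MUT DMM, against 31.8, 6.95 and 0.28 in WT sham. At both regions WT sham 3 was the lowest library, whereas at another Phf20 region, from 156302241 to 156302520, it was the highest, with 0.74 and 0 in MUT DMM, against 2.65, 10.4 and 26.6 in WT sham 1, 2 and 3. Regions high in WT sham 3 lay in Myh7b, Mmp24, Gdf5, Cep250, Epb41l1 and Tgif2, among others. Myh7b encodes a slow muscle myosin, and its region from 155628401 to 155628780 had 2.95 and 18.9 in MUT DMM, against 1.59, 41.7 and 73.8 in WT sham. The Gm14170 region from 156401101 to 156401520, which reaches into the promoter window printed above, had 2.21 and 0 in MUT DMM, against 7.42, 26.6 and 63.0 in WT sham. At these regions WT sham 1 was closer to the deep MUT DMM library than to WT sham 3.

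The same places were also read in MUT DMM against WT DMM, which uses no sham library but shares the MUT DMM libraries. Of the 23 regions high in WT sham 1 in the previous paragraphs, 12 overlapped a region listed in MUT DMM against WT DMM, and of the 48 high in WT sham 3, 23 did. At the 12, the medians were 24.6 and 21.3 in deep and shallow MUT DMM, and 1.88 and 5.48 in WT DMM 2 and 3. At the 23, they were 1.40 and 7.11 in MUT DMM, and 15.8 and 16.4 in WT DMM 2 and 3. The 12 were called higher and the 23 lower in MUT DMM. On the rest of chromosome 2, 9 of 25 were higher and 6 of 6 lower. All of the 12 overlapped regions set apart above for a deep MUT DMM library nearer to WT sham 1. Both comparisons use that library, so the direction of the 12 largely follows from that choice. On the rest of chromosome 2, most regions high in WT sham 1 had the deep MUT DMM library nearer to WT sham 3. The 12 and the 25 thus come from sets of different make-up, and no contrast is drawn from them. A region enters this table only where WT DMM differs from MUT DMM, so the levels of WT DMM relative to MUT DMM are fixed by the listing and are given as values only. Within groups, WT DMM 2 and 3 were 4-fold apart in 0.476% of regions of the stretch in this comparison (0.737% on the rest of chromosome 2). The MUT DMM libraries were so in 0.862% (0.546% on the rest). In MUT DMM against WT sham, however, the MUT DMM libraries were 4-fold apart in 24.3% of the stretch and 21.3% of the rest. In WT DMM against WT sham, WT DMM 2 and 3 were so in 11.8% and 10.3%. In MUT DMM against WT DMM, both MUT DMM libraries were at least 4-fold above WT DMM 2 and 3 in 9 regions of the stretch (2.08%) against 0.191% on the rest of chromosome 2 and 0.179% over the table. They were at least 4-fold below in 3 (0.694%) against 0.0957% and 0.153%.

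The gene a, on chromosome 2 from 154950599 to 155051012, had 10 listed regions in MUT DMM against WT DMM (9 higher, 1 lower), 3 in MUT DMM against WT sham (3 higher) and 7 in WT DMM against WT sham (3 higher, 4 lower). All lay inside the gene, and the table gives no exons, so exonic and intronic places were not told apart. Some regions are given under Gm14226, an overlapping gene, in the authors' annotation. With MUT DMM set against WT DMM, the region from 155014801 to 155015200 had 65.0 and 24.9 normalized counts (278 and 7 reads) in MUT DMM, against 0, 3.01 and 2.44 (0, 4 and 4 reads) in WT DMM. That from 155020341 to 155020780 had 26.2 and 21.3 in MUT DMM, against 0, 0 and 1.22 in WT DMM. No WT DMM library reached either MUT DMM library in these regions. Those from 155027161 to 155027600 and from 155028821 to 155029240 were read in every library. The first of these had 48.2 and 49.8 in MUT DMM, against 28.7, 14.3 and 17.6 in WT DMM, and the second 79.8 and 32.0 in MUT DMM, against 19.1, 15.0 and 20.1 in WT DMM. The groups did not overlap in either, with a WT DMM 1 value that rested on 3 and 2 reads. The regions from 155019021 and from 155029601 were at 0 throughout WT DMM, and there the shallow MUT DMM library stood at 14.2, where the deep one had 1.64 and 1.40. The other 4, from 154955041, 154991361, 154996741 and 155002281, had 0.7 to 14.2 in MUT DMM and 0 to 5.48 in WT DMM, and in the last of them the MUT DMM mean was the lower.

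The same part of a carried the spread among the sham libraries. With WT DMM set against WT sham, the region from 155014881 to 155015200 had 0, 5.34 and 4.17 in WT DMM, against 121, 45.8 and 1.71 in WT sham 1, 2 and 3 (378, 64 and 10 reads). The region from 155020401 to 155020720 had 0, 0 and 2.08 in WT DMM, against 51.9, 15.7 and 1.2 in WT sham. WT sham 3 lay among the WT DMM libraries in both, so the groups overlapped. The region from 155028861 to 155029200 had 31.4, 26.7 and 34.4 in WT DMM, against 140, 62.2 and 12.0 in WT sham, again with WT sham 3 lowest of its group. The region between them, from 155027241 to 155027540, had 47.0, 22.7 and 27.1 in WT DMM, against 95.5, 54.4 and 50.4 in WT sham, without overlap. Toward the gene's end, the 3 higher regions, from 155037181, 155040061 and 155041441, had 5.34 to 14.6 in WT DMM 2 and 3, 0 in WT DMM 1 and 1.28 to 3.58 in WT sham. With MUT DMM set against WT sham, the region from 155020341 to 155020740 had 82.5 and 56.7 in MUT DMM, against 86.4, 25.5 and 1.94 in WT sham. The region from 154996581 to 154996860 had 29.5 and 56.7 in MUT DMM, against 21.2, 19.7 and 13.3 in WT sham, without overlap. The region from 155029701 to 155029940 had 3.68 and 37.8 in MUT DMM, against 5.30, 0 and 0 in WT sham, with overlap. None of the 3 passed limma's test across the table: the adjusted p was 0.246 for the first (log2 difference 1.87 ± 1.38 SE) 0.0825 for the second (1.16 ± 0.47 SE) and 0.0937 for the third (2.87 ± 1.23 SE).

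**Figure D4:**
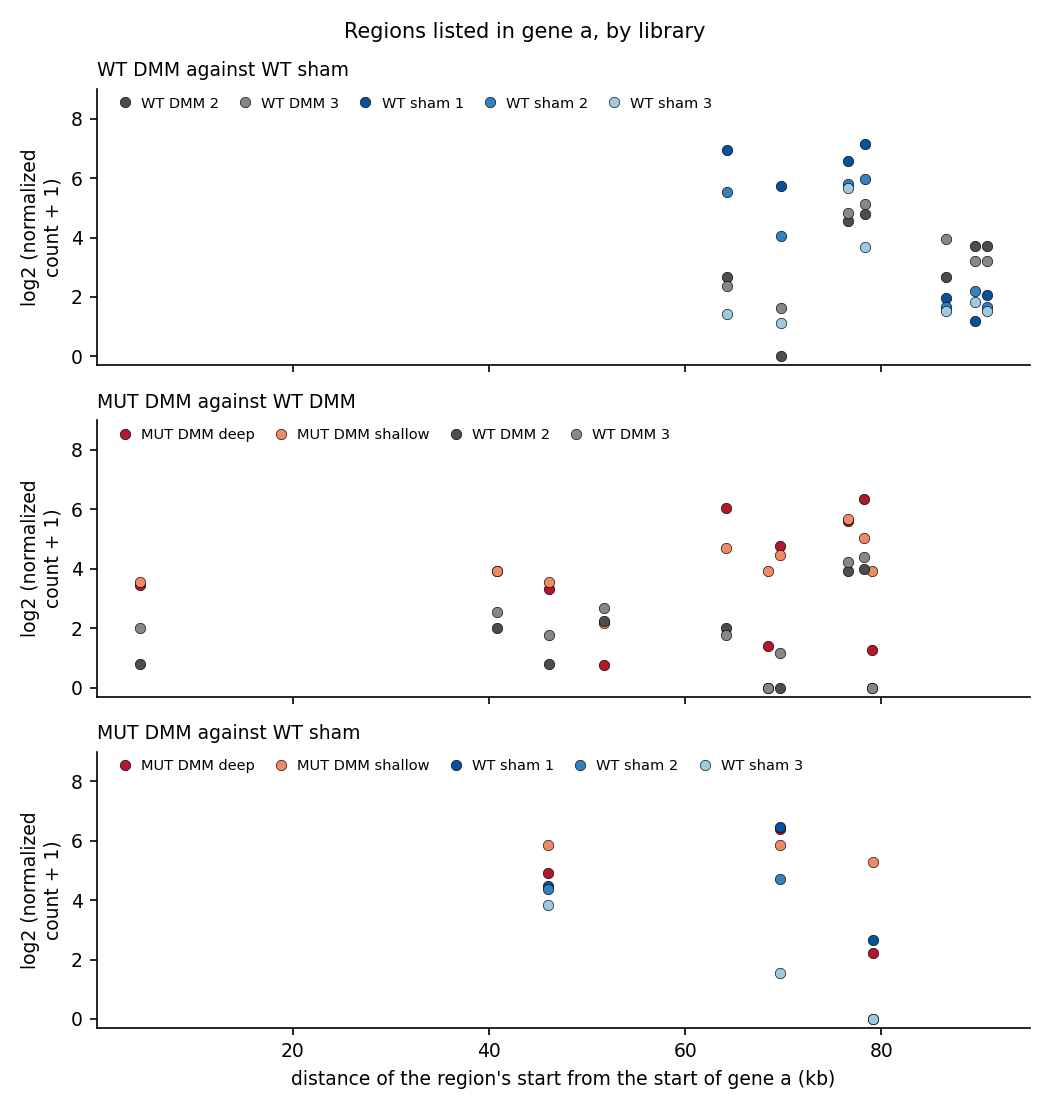
Log2 (normalized count + 1) of each library at the regions listed in a, by distance of the region's start from the gene's start (kb), for the 3 comparisons; the near-empty WT DMM 1 is left out. At the regions near 64 and 70 kb, the MUT DMM libraries and WT sham 1 lie high, and WT DMM 2 and 3 with WT sham 3 low.

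Gene lists were read within 5 kb of a gene, each region counted once per list, and nothing particular to a list is read from its counts. Beside them stand the shares over the whole stretch: 57.0% of changed regions were higher in MUT DMM than in WT DMM, 38.1% in MUT DMM than in WT sham and 78.2% in WT DMM than in WT sham. Of 15 neighbours of a in the stretch, 12 held a higher and 9 a lower region in MUT DMM than in WT DMM, with 25 regions higher and 16 lower. Against WT sham the same genes held 13 higher and 21 lower regions in MUT DMM, and in WT DMM against WT sham 8 higher and 2 lower. Pigu, which encodes a subunit of the GPI anchor transamidase, held 5 higher and 4 lower regions in MUT DMM against WT DMM, and Itch, which encodes a ubiquitin ligase of immune cells, 4 higher and 1 lower. Ncoa6, a coactivator of nuclear receptors, held 4 higher and 1 lower. E2f1, the cell cycle factor, held none in that comparison.

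Genes of the skeleton and of growth factors numbered 9 in the stretch. In MUT DMM against WT sham, 8 held a lower and 3 a higher region, with 22 regions lower and 6 higher, where 61.9% of the changed regions of the stretch were lower. Regions of Gdf5, Mmp24, Uqcc1 and Tgif2 among the lower ones are places where WT sham 1 and WT sham 3 were at least 4-fold apart. Relative to WT DMM they held 10 higher and 9 lower regions in MUT DMM, and in WT DMM against WT sham 2 higher and 2 lower. At Gdf5 the region from 155941141 to 155941480 had 1.40 and 3.55 in MUT DMM, against 0, 9.03 and 9.74 in WT DMM, and was called lower in MUT DMM. The region from 155941301 to 155941780 had 4.42 and 18.9 in MUT DMM, against 6.89, 33.6 and 62.4 in WT sham. WT sham 1 lay between the MUT DMM libraries there, so the groups overlapped, and limma's adjusted p was 0.278 (log2 difference -1.32 ± 1.06 SE). Mmp24 encodes a membrane-type metalloprotease, and its region from 155807761 to 155808120 had 1.47 and 0 in MUT DMM, against 7.42, 33.6 and 42.7 in WT sham. The groups were apart, and limma's adjusted p was 0.0208 (log2 difference -3.89 ± 0.94 SE), but WT sham 1 and WT sham 3 were more than 4-fold apart there too.

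Chromatin, methylation and imprinted genes, 9 in the stretch, held 12 higher and 9 lower regions in MUT DMM against WT DMM, 5 higher and 16 lower in MUT DMM against WT sham, and 2 higher and 2 lower in WT DMM against WT sham. Relative to WT DMM, Phf20 held 6 higher and 1 lower, Nol4l 4 higher and none lower, and Dnmt3b 1 higher and 3 lower. Apoptosis and cell cycle genes, 8 in the stretch, held 6 higher and 10 lower, 9 higher and 12 lower, and 8 higher and 2 lower in the same order of comparisons. Bcl2l1, the gene of the survival protein BCL-XL, held 4 lower regions and none higher in MUT DMM against WT DMM. Redox and metabolism genes, also 8, held 8 higher and 3 lower in MUT DMM against WT DMM and 6 higher and 7 lower against WT sham, and none in WT DMM against WT sham. Acss2, which makes acetyl-CoA from acetate, held 1 higher region in MUT DMM against WT DMM. Signalling and scaffold genes, 14 in the stretch, held 37 higher and 25 lower in MUT DMM against WT DMM, 26 higher and 39 lower in MUT DMM against WT sham, and 18 higher and 6 lower in WT DMM against WT sham.

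Genes that mark other cell types also lie in the stretch, and their counts are small beside the same shares of 57.0%, 38.1% and 78.2% higher. Relative to WT DMM, muscle genes held 6 higher and 2 lower regions in MUT DMM, of which Myh7b had 5 higher and 1 lower, the endothelial gene Procr held 1 lower, and blood cell genes held 4 higher and 3 lower. In that comparison epithelial genes held 2 higher and 1 lower and brain genes 10 higher and 6 lower. Against WT sham the same lists held, in MUT DMM, 1 higher and 4 lower, 0 higher and 1 lower, 2 higher and 8 lower, 3 higher and 6 lower, and 9 higher and 12 lower. For WT DMM against WT sham they held no muscle and no endothelial region, 7 higher and 3 lower blood cell regions, 5 higher and 1 lower epithelial regions, and 1 higher brain region. The part of the cell mixture in these results was not tested.

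The genes with most changed regions were long or dense ones. Between MUT DMM and WT DMM, Epb41l1 and Dlgap4, which encode scaffold proteins of the cell cortex and the synapse, held 15 (10 higher) and 12 (7 higher), and Cnbd2, a gene of sperm development in mice, 12 (10 higher). Between MUT DMM and WT sham, Dlgap4 held 14 (3 higher), Epb41l1 12 (2 higher), and Efcab8 and Nol4l 8 each. Between WT DMM and WT sham the order was a with 7, Ctnnbl1, which encodes a splicing factor partner, with 6, of which 3 were lower, and Cdk5rap1 with 5, none lower.

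The largest differences with all deeper libraries apart came partly from the same places. For MUT DMM against WT DMM, the 5 largest higher regions were the pair in a already given, 1 in Phf20, 1 outside genes whose nearest gene is Dhx35, and 1 outside RefSeq genes from 156118701 to 156119140. The Phf20 region from 156238921 to 156239380 had 20.8 and 14.2 in MUT DMM and 0 in all 3 WT DMM libraries. The Dhx35 region from 158886021 to 158886560 had 21.5 and 10.7 in MUT DMM and again 0 in all 3 WT DMM libraries. WT DMM 1, 2 and 3 had 247, 8669 and 10890 reads in the whole stretch and the deep MUT DMM library 35469, and the part of depth in these zeros was not tested. The 5 largest lower ones lay near Rem1, in Trib3, near Src, in Ttll9 and outside genes. Trib3 encodes a pseudokinase of the stress response, and its region from 152337461 to 152337680 had 0 and 0 in MUT DMM, against 9.56, 6.02 and 9.74 in WT DMM. Near Src, the gene of a tyrosine kinase, the region from 157416341 to 157416720 had 0.94 and 0 in MUT DMM, against 19.1, 4.51 and 11.0 in WT DMM.

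Relative to WT sham the Trib3 region was also among the 5 largest lower ones, with 0 and 0 in MUT DMM, against 11.7, 25.5 and 31.4 in WT sham, and limma's adjusted p was 0.00369 (log2 difference -4.47 ± 0.65 SE). The tables share their MUT DMM libraries, so this is not a second observation of them. Scrt2, which encodes a transcriptional repressor made in neurons, had 1.47 and 0 in MUT DMM, against 17.5, 32.4 and 66.3 in WT sham at 152090921 to 152091320, with a limma adjusted p of 0.00733. A region from 159352061 to 159352600, outside genes, had 2.95 and 0 in MUT DMM, against 14.9, 83.4 and 94.6 in WT sham, with a limma adjusted p of 0.0165. Mmp24 has been given, and the fifth, from 159877621 to 159877960, rested on WT sham 1, with 0 and 0 in MUT DMM, against 53.6, 5.79 and 2.50 in WT sham (adjusted p 0.0570). The 5 largest higher ones, near Raly and near 4930556L07Rik and in Gm14149, Ncoa6 and 6430550D23Rik, rested on few reads: the Raly and Ncoa6 regions had 2 reads in each MUT DMM library.

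For WT DMM against WT sham, the 5 largest lower regions lay before the RefSeq start of a (inside a in the authors' annotation), in Gm38598, in Ctnnbl1, in Cnbd2 and near Id1. Id1 encodes an inhibitor of differentiation factors that BMP signals induce, and the region from 152722041 to 152722380 had 0, 6.67 and 9.37 in WT DMM, against 77.2, 40.1 and 10.3 in WT sham. The region before a, from 154901681 to 154902060, had 0, 0 and 4.17 in WT DMM, against 43.3, 31.5 and 4.27 in WT sham. WT sham 3 barely exceeded WT DMM 3 in both. The 5 largest higher regions, in Ttll9 and Zfp442, near Slc52a3 and in 2 places outside genes, had 8 to 27.1 in WT DMM 2 and 3, against 1.37 to 6.49 in WT sham.

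Across the table, limma's test on log2(value + 1) with Benjamini-Hochberg adjustment called 0 of 432 regions in MUT DMM against WT DMM (51 at an unadjusted p under 0.05; 0% over the table) and 0 of 174 in WT DMM against WT sham (5 unadjusted; 0.0161% over the table). Without the near-empty WT DMM 1, 109 of 432 were called, 71 higher and 38 lower in MUT DMM, where 15.7% of the table were. Relative to WT sham, 128 of 174 were then called, 107 higher and 21 lower in WT DMM, where 77.8% of the table were. In MUT DMM against WT sham, 192 of 466 were called, 22 higher and 170 lower, where 47.2% of the table were. Without WT sham 3 the count was 120, 4 higher and 116 lower, where 29.4% of the table were. With 2 MUT DMM libraries, of which 1 is shallow, and a listing made from the same values, these calls describe the spread between libraries only.

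The summed level of the stretch relative to the rest of chromosome 2 gave 1 value per library. With MUT DMM set against WT DMM the log2 ratio was -3.51 and -3.68 in MUT DMM, against -3.81, -4.07 and -4.61 in WT DMM. The difference in means was 0.57, MUT DMM being higher, with an exact two-sided permutation p of 0.2, the smallest that 2 against 3 libraries allow (adjusted over the 3 comparisons 0.450). It was 0.74 without WT DMM 1 and 0.34 without WT DMM 3. With MUT DMM set against WT sham it was -3.21 and -3.43 in MUT DMM, against -3.35, -3.32 and -3.16 in WT sham, with overlapping groups, a difference of -0.05 and an exact permutation p of 0.8. With WT DMM set against WT sham it was -3.54, -4.32 and -4.30 in WT DMM, against -3.28, -3.57 and -4.04 in WT sham. That difference was -0.42 with an exact permutation p of 0.3, where 3 against 3 libraries allow no less than 0.1. It was -0.68 without WT DMM 1, -0.63 without WT sham 3 and -0.25 without WT sham 1. Within WT sham the ratio was lowest in WT sham 3 at regions listed in WT DMM against WT sham. It was highest in WT sham 3 at regions listed in MUT DMM against WT sham. The order of the sham libraries thus differed between these comparisons, and the cause was not tested.

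**Figure D5:**
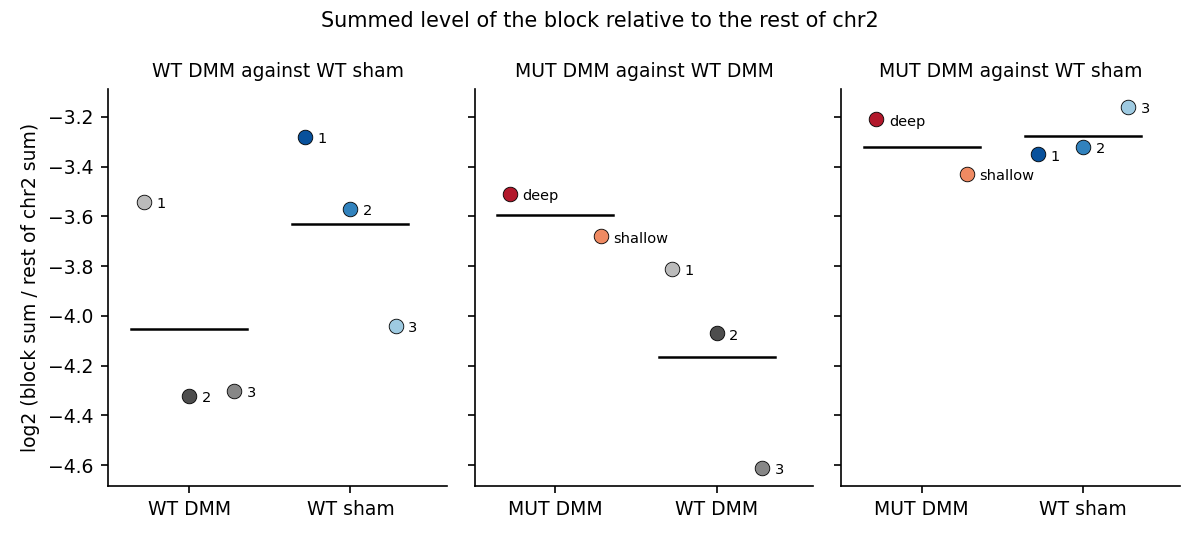
Log2 ratio of the summed normalized counts in the stretch to those on the rest of chromosome 2, per library, in the 3 comparisons; points are libraries, labelled by place or depth, and bars are group means. MUT DMM lies above all 3 WT DMM libraries, and in the other comparisons the groups overlap.

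With the near-empty WT DMM 1 left aside, runs of at least 5 listed regions in a row with a single library alone at 0, or alone above 0, numbered 0 in each comparison. On the rest of chromosome 2 there were 0 in MUT DMM against WT DMM and in WT DMM against WT sham, and 6 in MUT DMM against WT sham. With WT DMM 1 kept, the runs numbered 19 in MUT DMM against WT DMM and 6 in WT DMM against WT sham, the longest of 13 and 47 regions, and the rest of chromosome 2 held 178 and 97. WT DMM 2 alone was at 0 in 4.40% of the regions of the stretch in MUT DMM against WT DMM, against 0.909% on the rest of chromosome 2, and in 6.32% against 1.66% in WT DMM against WT sham.

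Regions that overlap a promoter window leaned the same way in the stretch as on the rest of the chromosome. In MUT DMM against WT DMM, 21 of 23 in the stretch were higher in MUT DMM (91.3%), against 220 of 256 on the rest of chromosome 2 (85.9%). Away from promoter windows, 55.1% were higher in the stretch, against 30.8% on the rest of the chromosome, so the contrast of the stretch lay there. At the Cep250 window, which belongs to a centrosome gene, MUT DMM had 46.3 and 32.0, against 19.1, 18.1 and 9.74 in WT DMM. At the Acss2 window it had 26.9 and 24.9, against 0, 15.8 and 10.4 in WT DMM, and at the Raly window, of an RNA-binding protein gene, 47.7 and 46.2, against 0, 40.6 and 23.1 in WT DMM. Against WT sham, MUT DMM had 84.7 and 66.1 at Acss2, against 54.6, 45.2 and 48.3, and 150.2 and 123 at Raly, against 69.5, 91.5 and 94.0. WT sham 1 and WT sham 3 were under 4-fold apart at these windows, and more than 4-fold apart at Gm14170.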

How the data were processed

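DNA of knee cartilage was profiled by RRHP, with 15 PCR cycles, per the labels' protocols, which name no molecular identifiers. Per the submitters' processing notes, the authors worked with mm10 and with HISAT2 (version 2.1.0), Trim Galore (0.5.0), bedtools, SAMtools and bcl2fastq (2.20.0). No source names the region caller. The deposited normalized counts (3 libraries per cell, joined), their mean signal per group, and the p-values and adjusted p-values came from the authors, and how they scaled the counts is not stated. The deposited log2 fold changes were not used. Values were whole multiples of 1 step per library in at least 99.9955% of regions (tolerance 0.02), and reads were recovered from them. The library deposited again under the same values was counted once. limma 3.58.1 (R 4.3.3) was fitted with a mean trend to log2(value + 1) over each whole table, and checked on simulated data. The simulation gave every library equal noise and copied neither the near-empty and shallow libraries nor the listing by p-value. It therefore does not show how limma behaves under these features of the data. Exact permutation tests used SciPy 1.17.1. The joined values are normalized, so no count model was run. Gene bounds and promoter sequences came from RefSeq (GRCm38.p6, the coordinates of mm10). Named are a with every listed region, listed genes within 5 kb, the 5 largest changed regions per comparison and direction with the deeper libraries apart, and the 3 genes with most changed regions; single regions of the 2 kinds were chosen after their values were seen. The interval, the lists and the tests were chosen with earlier results of these data known. Whether biological replicates were separate animals is not stated, so a p-value measures only how these libraries differ. The background control and the MUT sham libraries were not used here. Intervals cover counting error only.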

Additional observations from a re-analysis of the deposited data

How the results depend on the processing

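No paired analysis was possible because the joined values carry no replicate number. Bounds drawn in by 2 Mb at each end left 75 of 107 changed regions higher in WT DMM than in WT sham and 107 of 314 higher in MUT DMM than in WT sham. Bounds moved out by 5 Mb at each end gave 272 of 324 and 279 of 749, with 470 lower in the last, and 327 of 691 lower in MUT DMM than in WT DMM. Leaving out 1 library at a time gave 90 to 137 higher and 37 to 84 lower in WT DMM than in WT sham, with 90 and 84 without WT DMM 3. In MUT DMM it gave 242 to 283 higher than in WT DMM and 161 to 177 higher than in WT sham. limma's calls ranged from 0 to 109 in MUT DMM against WT DMM, with 109 without WT DMM 1, where 15.7% of the table were called. In WT DMM against WT sham they ranged from 0 to 128, with 128 without WT DMM 1 and 5 without WT DMM 3. In these 2 settings 77.8% and 1.27% of the table were called. In MUT DMM against WT sham they ranged from 117 without WT sham 2 to 294 without the deep MUT DMM library, with 120 without WT sham 3. With a mean of at least 5 normalized counts, limma called 23 of 356 in MUT DMM against WT sham, all lower. Fewer regions were tested, and 6.92% of those over the table were called. The difference in the summed level reversed to 0.06 in MUT DMM against WT sham without the shallow MUT DMM library and to 0.01 without WT sham 3, within a range of -0.16 to 0.06. It ranged from 0.34 to 0.74 in MUT DMM against WT DMM and from -0.68 to -0.25 in WT DMM against WT sham. Runs of at least 3 regions gave 1 in MUT DMM against WT DMM and 3 in MUT DMM against WT sham, and reading 1 read as 0 also gave 1 in MUT DMM against WT sham. Keeping WT DMM 1, added after seeing the data, gave 19 runs in MUT DMM against WT DMM and 6 in WT DMM against WT sham. At 8-fold, 25 of 266 regions had WT sham 1 and 3 apart in MUT DMM against WT sham (9.40%, rest of chromosome 2 2.14%), and with a mean of at least 20, 47 of 188 (25.0%, rest 8.04%); these settings were chosen after seeing the data. Of 135 alternatives over all results, 110 kept the direction and stayed within 1.5 times of the count, 23 moved and 2 reversed; the cause was not tested. Depth limits what the shallow MUT DMM library and WT DMM 1 show.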
